A study of Rattus norvegicus with 18 samples.

Results

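The antigen presentation genes examined here were *Cd74*, *RT1-Da*, *RT1-Db1*, *RT1-Ba*, *RT1-Bb*, *B2m*, *Tap1*, *Psmb8* and *Psmb9*, which are the rows of the mRNA count table whose RefSeq symbol carries one of these names. Each of the 9 was found among the 15075 identifiers of the table, 1 identifier each, and all 9 passed the filter on low counts in every comparison. The poly(A) RNA came from dorsal root ganglia (DRG) at C6-C8 of 18 Lister hooded rats, with the ganglia of the treated side pooled within an animal, and 6 rats made up each group. The naïve rats were unoperated. The bPYX+GFP and bPYX+NT3 rats had both corticospinal tracts cut in the medullary pyramids (bilateral pyramidotomy, bPYX) and on the following day received AAV1-CMV-EGFP or AAV1-CMV-NT3 in the forelimb flexors of one side, and their ganglia were taken 10 weeks after the injury. The vector carried human neurotrophin-3 (NT3), a muscle-derived growth factor for proprioceptive neurons, under the CMV promoter, which is not restricted to a cell type. There was no group of naïve rats given a vector, so that injury and vector cannot be told apart in the bPYX+GFP group.

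MHC class II molecules present peptides taken up from outside the cell to CD4 T cells. They are pairs of an alpha and a beta chain, in the rat *RT1-Da* with *RT1-Db1* (the counterpart of human DR) and *RT1-Ba* with *RT1-Bb* (the counterpart of human DQ), and *Cd74* encodes the invariant chain that escorts them. In peripheral ganglia macrophages and other immune cells are the best known source of class II. MHC class I molecules present peptides made inside nearly every cell. *B2m* encodes their shared light chain, *Tap1* one of the 2 chains of the transporter that carries peptides into the endoplasmic reticulum, and *Psmb8* and *Psmb9* encode inducible catalytic subunits of the immunoproteasome, which cuts those peptides.

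The tissue label was checked against marker genes. The neuronal *Uchl1* and *Nefh* and the Schwann cell *Pmp22* were abundant, with group means of 508 to 575, 2202 to 2503 and 1638 to 2031 CPM (reads scaled to the size of the library). The lowest markers of the same lists were the neuronal *Snap25*, with group means of 0.0943 to 0.146 CPM, and the Schwann cell *Mbp*, with 3.44 to 3.98 CPM. These markers were named after their values were seen. The libraries held between 10057787 and 16002410 read-pairs on genes. Of the read-pairs, between 30.9 and 34.6% were assigned to no feature and between 19 and 22.3% mapped to several locations and were not counted, which can remove reads from RT1 genes that have near-identical copies. Rats 11 (bPYX+NT3) and 57 (bPYX+GFP) had the lowest shares of both kinds. The groups are those that the count table's heading gives by rat number and sample, and the counts recorded sample by sample sit under a title of another group for 17 of 18 rats.

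The members lie close together in the genome apart from *Cd74* and *B2m*, and 7 of the 9 are on chromosome 20, in the order *RT1-Da*, *RT1-Db1*, *RT1-Ba*, *RT1-Bb*, *Psmb8*, *Tap1*, *Psmb9* along 154 kilobases between the first and last start sites (GRCr8, RefSeq). *Tap1* and *Psmb9* are divergent, with 456 bases between their starts. Promoter windows of 250 bases before to 50 bases after the start were found for all 9 genes. The stretches of the 4 class II chains are shown because they hold the elements that the class II enhanceosome is known to bind. Capitals mark an X box (AGNNACNGATG), a TGACGTCA element and a Y box (CTGATTGG), and positions are counted from the start, with -1 the base before it. The sequences read 5′ to 3′ on the strand of the gene, from chr20:4515323-4515385 (plus strand), chr20:4560223-4560285 (minus), chr20:4576971-4577033 (plus) and chr20:4604160-4604222 (minus) of GRCr8.
RT1-Da: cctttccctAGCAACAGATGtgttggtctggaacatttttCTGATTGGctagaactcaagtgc
RT1-Db1: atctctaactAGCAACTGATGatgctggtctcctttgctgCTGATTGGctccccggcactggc
RT1-Ba: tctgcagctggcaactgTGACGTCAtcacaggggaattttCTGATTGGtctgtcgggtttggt
RT1-Bb: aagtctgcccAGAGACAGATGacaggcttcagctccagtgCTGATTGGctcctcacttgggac

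The Y box stood at -52 in *RT1-Da*, -83 in *RT1-Db1*, -46 in *RT1-Ba* and -64 in *RT1-Bb*. In *RT1-Da* the X box began 31 bases before the Y box, and in *RT1-Db1* and *RT1-Bb* 30 bases before it. *RT1-Ba* had no X box of this spelling, and its TGACGTCA element began at -69. Searched on both strands, the Y box was in 3.5% of the 33469 promoter windows of the rat, the X box in 0.95% and TGACGTCA in 1.83%. An X box followed by a Y box on the same strand within 40 bases was in 5 windows (0.0149%), those of *RT1-Da*, *RT1-Db1*, *RT1-Bb*, *RT1-Db2* and *Slc4a5*. The *Cd74* window held none of these 3 spellings. The motifs were chosen with the sequences in view, and a match is a description of the letters.

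The class I pathway promoters are shown for another pair of elements. Capitals mark an interferon-stimulated response element (ISRE, GAAANNGAAA or its reverse complement) and a kappaB element (GGGANTTTCC or its reverse complement), from chr3:129549165-129549217 (plus strand), chr20:4668574-4668679 (minus) and chr20:4657024-4657050 (minus) of GRCr8.
B2m: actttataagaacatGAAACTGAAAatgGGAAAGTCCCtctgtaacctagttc
Tap1: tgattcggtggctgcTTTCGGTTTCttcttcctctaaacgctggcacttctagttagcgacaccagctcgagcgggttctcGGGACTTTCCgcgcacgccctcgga
Psmb8: tcttggtgctgtggcTTTCGCTTTCac

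*B2m* held the ISRE at -150 and the kappaB element at -137. In *Tap1* they stood at -121 and -55. *Psmb8* held the ISRE alone, across its start from -4 to 6, and *Psmb9* held neither but had a Y box spelling after its start, at 20. Over all windows the ISRE spelling was in 3.92% and the kappaB spelling in 0.362%.

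None of the 9 genes passed an unadjusted p under 0.05 between any 2 of the 3 groups, and no 2 groups were separated for any gene. The spread between rats was wide for 8 of the 9 genes, and the rats that stood highest for one gene stood highest for most others. A single bPYX+NT3 animal, rat 17, had the highest level of all 9 genes among the 18 rats.

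**Figure D1:**
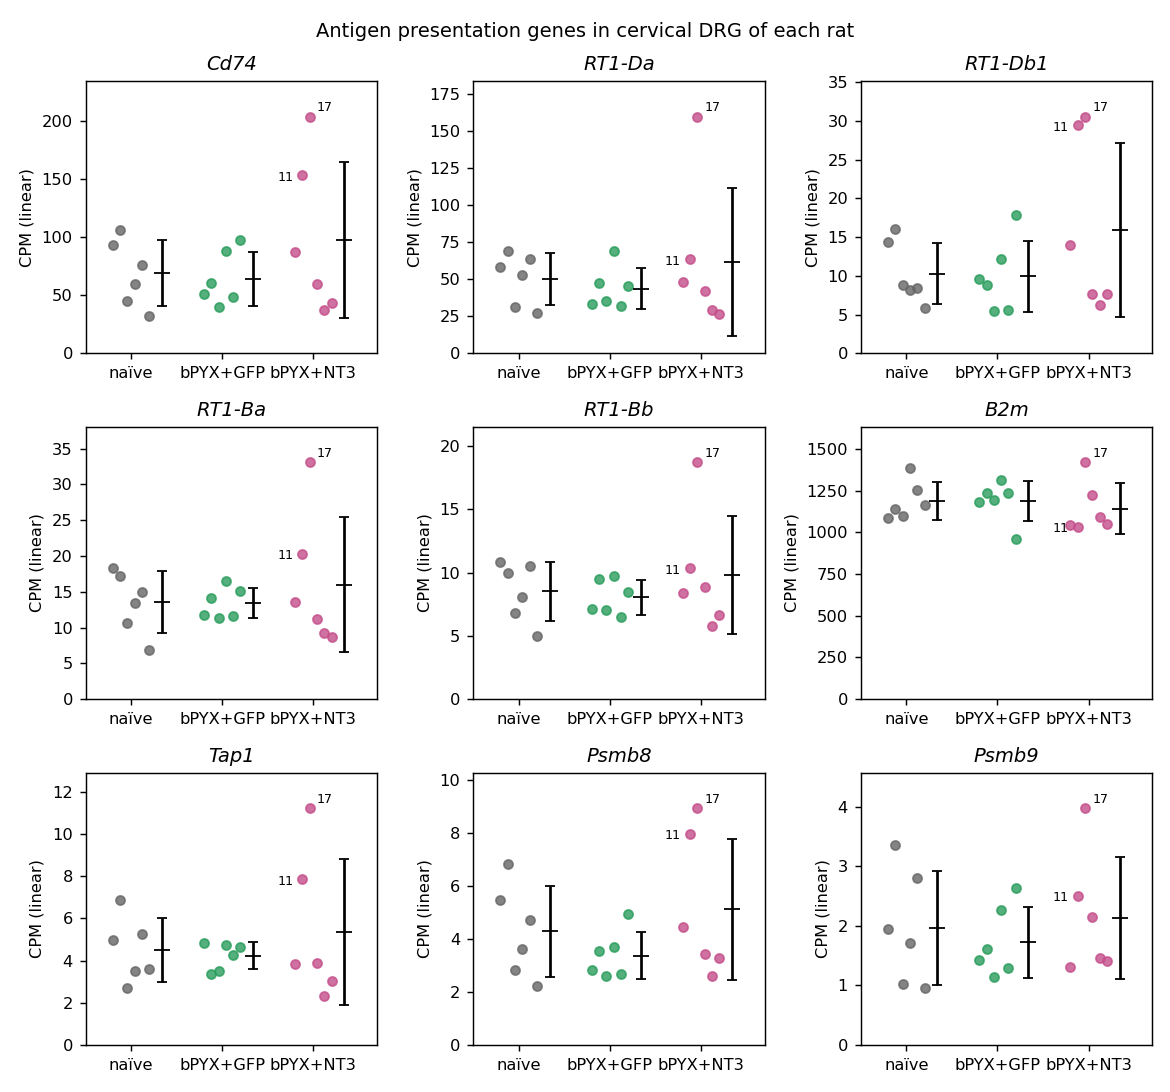
Level of each gene in CPM (linear axis from 0) in each rat by group, with the mean and SD of 6 rats beside the points and rats 17 and 11 labelled. Rat 17 is the highest point in every panel, and the groups overlap in every panel.

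*Cd74* ranged from 32.0 to 106 CPM in the naïve rats (median 67.9), from 39.9 to 97.7 in the bPYX+GFP rats (median 55.9) and from 37.5 to 204 in the bPYX+NT3 rats (median 73.5). The 6 bPYX+NT3 rats lay far apart, with 204 CPM in rat 17 and 153 in rat 11, then 87.4 in rat 2, 59.6 in rat 23, 43.4 in rat 40 and 37.5 in rat 39. The lower 4 of them lay within the range of the naïve rats. *RT1-Da*, the alpha chain of the DR counterpart, ranged from 26.9 to 69.2 CPM in the naïve rats (median 55.5), from 31.8 to 68.7 in the bPYX+GFP rats (median 40.2) and from 26.8 to 160 in the bPYX+NT3 rats (median 44.99). Its highest bPYX+NT3 value was that of rat 17 and the next was 63.5 in rat 11, which was within the naïve range.

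*RT1-Db1*, the partner beta chain, ranged from 5.85 to 16.0 CPM in the naïve rats (median 8.66), from 5.48 to 17.8 in the bPYX+GFP rats (median 9.20) and from 6.28 to 30.6 in the bPYX+NT3 rats (median 10.8). Here rats 17 and 11 were nearly level, at 30.6 and 29.4 CPM. *RT1-Ba* ranged from 6.89 to 18.3 CPM in the naïve rats (median 14.2), from 11.4 to 16.5 in the bPYX+GFP rats (median 12.9) and from 8.63 to 33.1 in the bPYX+NT3 rats (median 12.4). *RT1-Bb* ranged from 4.99 to 10.8 (median 9.00), from 6.52 to 9.72 (median 7.78) and from 5.74 to 18.7 CPM (median 8.60) in the same order of groups. For this DQ counterpart the bPYX+NT3 median lay below the naïve median for both chains, while the means, which hold rat 17, lay above it.

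The class I pathway genes differed in how much they varied. *B2m* ranged from 1086 to 1386 CPM in the naïve rats (median 1151), from 958 to 1311 in the bPYX+GFP rats (median 1216) and from 1033 to 1420 in the bPYX+NT3 rats (median 1069). Its highest value was 1.48-fold its lowest over the 18 rats, against 3.75 to 6.36-fold for the other 8 genes. The peptide transporter *Tap1* ranged from 2.69 to 6.88 CPM (median 4.29), from 3.37 to 4.82 (median 4.45) and from 2.30 to 11.2 (median 3.87) in naïve, bPYX+GFP and bPYX+NT3 rats. *Psmb8* ranged from 2.24 to 6.83 CPM (median 4.17), from 2.58 to 4.93 (median 3.19) and from 2.603 to 8.94 (median 3.95). *Psmb9* was the least counted gene, with 11 to 56 reads per rat, and ranged from 0.947 to 3.35 CPM (median 1.83), from 1.14 to 2.64 (median 1.51) and from 1.30 to 3.97 (median 1.80). At these counts the counting error alone is a sizeable part of the spread in *Psmb9*.

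The variation between rats of a group was high for these genes against the rest of the transcriptome. The biological coefficient of variation (the spread between rats of a group beyond counting error, from edgeR) was 45.2% for *Cd74*, 43.4% for *RT1-Da*, 47.2% for *RT1-Db1*, 34.3% for *RT1-Ba* and 28.8% for *RT1-Bb*, which placed them at the 97.8, 97.3, 98.2, 93.4 and 88.5 percentiles of the genes tested. *Tap1*, *Psmb8* and *Psmb9* were at the 95.2, 94.6 and 94.97 percentiles. *B2m*, at 11.1%, was at the 31.3 percentile.

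The first comparison asked how the ganglia of injured rats given the control vector differed from naïve ganglia. Among all genes 377 of 11601 genes (3.25%) had an unadjusted p under 0.05, 85 higher (0.733%) and 292 lower (2.52%), and none passed the Benjamini-Hochberg adjustment with edgeR's quasi-likelihood test, while the likelihood ratio test passed 13 and DESeq2 12. Of the 9 antigen presentation genes 0 had an unadjusted p under 0.05. Their median log2 fold change was -0.09, and the median over all genes tested was 0.01. Of the 9 genes 8 were below 0, where 5092 of all 11601 genes tested were. Most of the 9 moved together from rat to rat, so that their signs are not independent. *Psmb8* had the largest difference, a log2 fold change of -0.34 (SE 0.261, p = 0.215, adjusted p = 0.9998, exact permutation p = 0.344), with 5 of 6 bPYX+GFP rats below the naïve median. With 1 rat left out this value ran from -0.49 to -0.16. *RT1-Da* had a log2 fold change of -0.20 (SE 0.246, -0.38 to -0.09 with 1 rat left out) and *Cd74* one of -0.09 (SE 0.285). *B2m* had a log2 fold change of 7.2e-05 (SE 0.0800), and the 95% interval of the difference in mean log2 CPM was -0.19 to 0.17.

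The second comparison set injured rats given NT3 against naïve rats. Among all genes 703 of 11693 genes (6.01%) had an unadjusted p under 0.05, 361 higher (3.09%) and 342 lower (2.92%), and 0 passed the adjustment with edgeR's quasi-likelihood test, its likelihood ratio test or DESeq2. Again 0 of the 9 genes had an unadjusted p under 0.05. Their median log2 fold change was 0.24, against a median of 0.00051 over all genes. Of the 9 genes 8 were above 0, where 5858 of all 11693 genes tested were, and here too the signs are not independent. The class II genes had fold changes between 0.19 for *RT1-Bb* (SE 0.270) and 0.62 for *RT1-Db1* (SE 0.406, with an edgeR adjusted p of 0.607). *Cd74* had a log2 fold change of 0.50 (SE 0.407), and 3 of 6 bPYX+NT3 rats were above the naïve median and 3 below it. *B2m* had a fold change of -0.06 (SE 0.0891).

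The third comparison, between the injured groups, asked what NT3 changed relative to the control vector. Among all genes 201 of 11623 genes (1.73%) had an unadjusted p under 0.05, 125 higher (1.08%) and 76 lower (0.654%), and 0 passed the adjustment with any of the 3 tests. None of the 9 genes had an unadjusted p under 0.05. The median log2 fold change was 0.34 over the 9 genes and 0.49 over the 5 class II genes, against 0.0049 over all genes. *Psmb8* came closest to the threshold, with a log2 fold change of 0.59 (SE 0.309, p = 0.0764, adjusted p = 0.851, exact permutation p = 0.190) and 5 of 6 bPYX+NT3 rats above the bPYX+GFP median. In the same fit *RT1-Db1* had a log2 fold change of 0.67 (SE 0.434) and *Cd74* one of 0.60 (SE 0.395), with an edgeR adjusted p of 0.851 for both. *B2m* had a fold change of -0.06 (SE 0.0895). The 3 comparisons share groups, so that their values are not independent of each other.

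**Figure D2:**
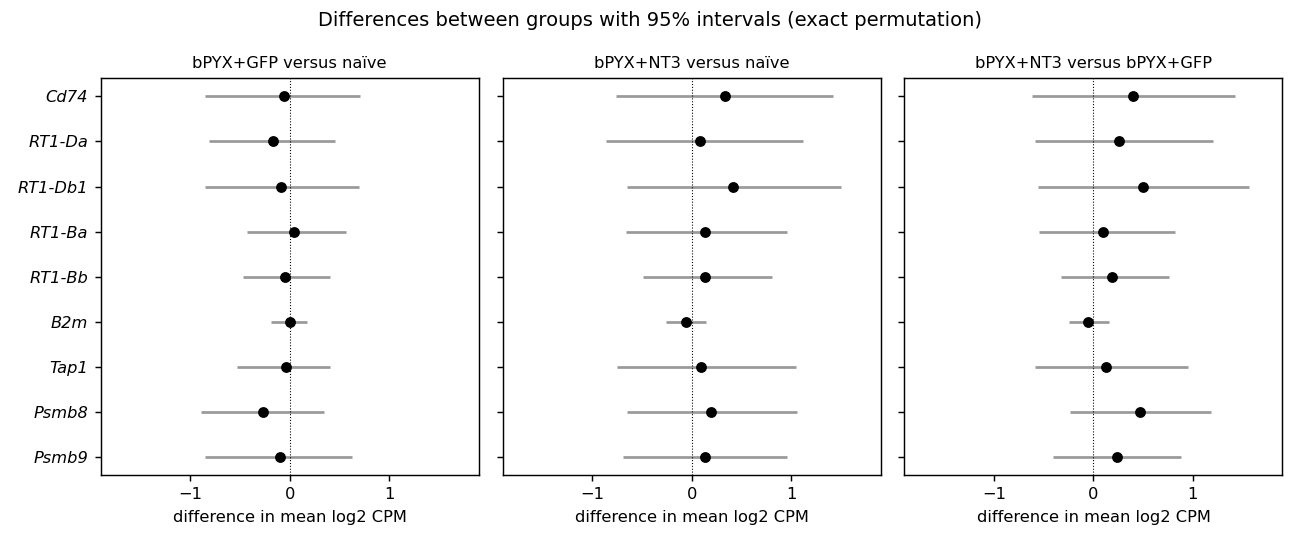
Difference between groups in mean log2 CPM (points) with its 95% interval from the exact permutation test (lines) for each gene, in 3 comparisons of 6 rats each. Every interval includes 0, and the intervals of *B2m* are the narrowest.

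The exact permutation test on log2 CPM, which can reach p = 0.00216 with 6 rats against 6, gave p between 0.190 and 0.983 over the 27 combinations of gene and comparison. In no combination did the groups fail to overlap, against 0.241%, 0.265% and 0.0602% of all genes tested in the 3 comparisons. The intervals show what these numbers of rats could resolve. For *Cd74* the 95% interval of the difference in mean log2 CPM was -0.85 to 0.71 between bPYX+GFP and naïve rats, -0.76 to 1.42 for bPYX+NT3 against naïve rats and -0.62 to 1.42 for the injured groups. For *RT1-Db1* the same intervals were -0.85 to 0.70, -0.65 to 1.50 and -0.56 to 1.56. For *B2m* they were -0.19 to 0.17, -0.26 to 0.14 and -0.25 to 0.16. A doubling of *B2m* lies outside all 3 of its intervals, while a doubling of *Cd74* or *RT1-Db1* in the bPYX+NT3 rats lies inside theirs.

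The direction in the bPYX+NT3 rats rested on rat 17. Without it the median log2 fold change of the 9 genes was -0.09 against naïve rats, with 3 genes above 0 and 6 below, and -0.00026 against bPYX+GFP rats, with 4 above and 5 below. *Cd74* then had a log2 fold change of 0.17 against naïve rats and 0.25 against bPYX+GFP rats. *RT1-Da* changed sign, to -0.25 and -0.05. *RT1-Db1* went from 0.62 to 0.36 and from 0.67 to 0.39, rat 11 being the next highest rat for this gene, and *Psmb8* from 0.25 to 0.04 and from 0.59 to 0.37. *Psmb8* between the injured groups was also the only value to fall under an unadjusted edgeR p of 0.05 when single rats were left out. The log2 fold change was 0.74 without rat 57, 0.73 without rat 39 and 0.69 without rat 40, and the edgeR adjusted p was 0.251, 0.710 and 0.823. When the groups of the titles recorded with the counts of each rat were used instead, the fitted values of all 9 genes lay below 0 in bPYX+NT3 against naïve rats, with a log2 fold change of -0.73 for *Cd74* and -0.84 for *RT1-Db1*, and 0 of 9 had an unadjusted edgeR p under 0.05.

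The genes rose and fell together from rat to rat. Of the 36 pairs among the 9 genes, 28 had a Pearson correlation over 0.5 across the 18 rats on log2 CPM, where 20.7% of all pairs of genes did, and 24 had one over 0.8, where 6.16% of all pairs did. The 28 were exactly the pairs without *B2m*, with r between 0.74 and 0.96 (median 0.86) and Spearman rho between 0.68 and 0.96. Within class II the 10 pairs had r between 0.78 and 0.96. The closest pair crossed the 2 pathways, *Cd74* with *Psmb8* (r = 0.96, rho = 0.96, p = 1e-05 each, the smallest that 100000 permutations can give, and r = 0.93 without the 2 rats farthest from the median of *Cd74*). These correlations were as high after each group's mean was removed (0.73 to 0.98) and in the naïve rats alone (0.67 to 0.99, 6 rats), and without rat 17 they were 0.65 to 0.95. Within the bPYX+GFP rats 24 of these 28 pairs had r over 0.5, and the lowest was -0.03.

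**Figure D3:**
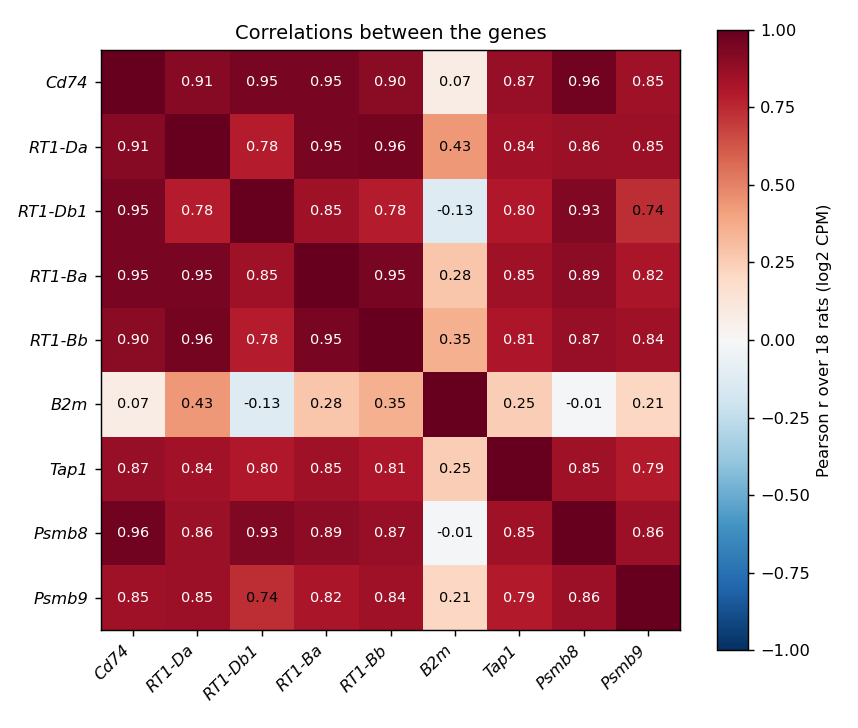
Pearson correlation of log2 CPM over the 18 rats for each pair of genes (colour scale from -1 to 1, r printed in each cell). The row and column of *B2m* hold values from -0.13 to 0.43, and all other pairs lie at 0.74 or higher.

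*B2m* stood apart from the other 8 genes. Its r with them ran from -0.13 (*RT1-Db1*) to 0.43 (*RT1-Da*), with a median of 0.23, and its highest correlation had p = 0.0724 by permutation. Without rats 11 and 57 its r with the other 8 genes ran from 0.22 to 0.59. Those 2 rats had the lowest *B2m*, at 1033 and 958 CPM, while their *Cd74* was in places 2 and 4 among the 18 rats.

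**Figure D4:**
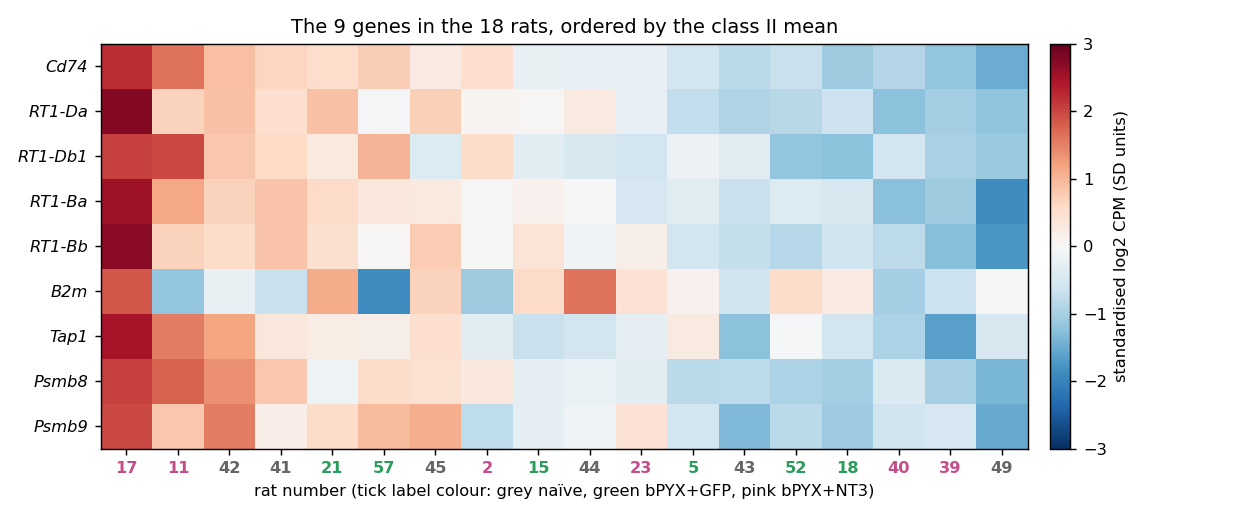
Level of each gene in each rat as standardised log2 CPM (SD units over the 18 rats), with rats ordered by the mean of the 5 class II genes and their numbers coloured by group. Rat 17 is high in all rows, and rats of the 3 groups are mixed along the order. The *B2m* row does not follow it.

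Ordered by the mean standardised level of the 5 class II genes, the rats ran from rat 17 at 2.52 SD and rat 11 at 1.27 SD (both bPYX+NT3), through rats 42 at 0.80 and 41 at 0.71 (both naïve), to rats 40 at -0.97 and 39 at -1.13 (both bPYX+NT3) and rat 49 at -1.53 (naïve). Each group thus held rats in the upper and the lower part of the order, and the bPYX+NT3 group held both the 2 highest rats and 2 of the 3 lowest.

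The ratio of alpha to beta chain reads in each rat is given with the SD that counting error alone would give, as a scale and not as a test, since separate animals can differ by more than counting error. Reads of *RT1-Da* per read of *RT1-Db1* ranged from 2.16 in rat 11 and 2.55 in rat 57 to 7.52 in rat 45, and the SD of the log2 ratio over rats was 0.47, beside a counting SD of 0.15. Reads of *RT1-Ba* per read of *RT1-Bb* ranged from 1.27 to 1.96, and the SD of 0.17 was no larger than the 0.19 of counting error. The ratio of *Cd74* to *RT1-Da* ranged from 1.13 to 2.41, highest in rat 11, with an SD of 0.30 beside a counting SD of 0.08. For the weakly counted immunoproteasome genes, *Psmb8* to *Psmb9*, the SD of 0.31 was within the counting error of 0.39.

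**Figure D5:**
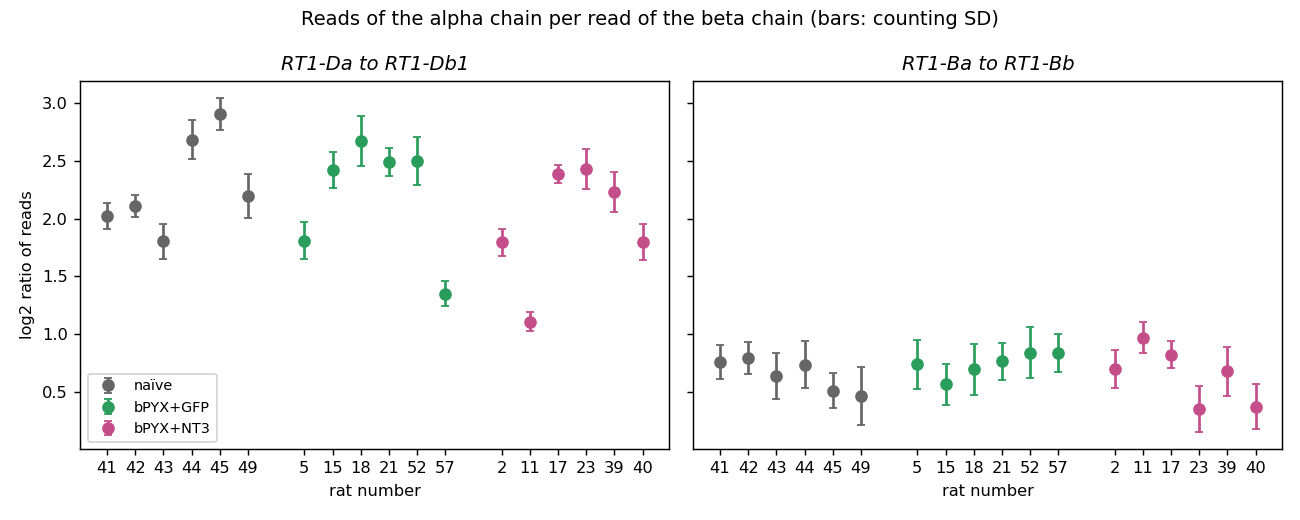
Log2 ratio of reads of the alpha chain to reads of the beta chain in each rat by group, for *RT1-Da* to *RT1-Db1* and *RT1-Ba* to *RT1-Bb*, with bars for the counting SD. The first ratio has an SD over rats of 0.47, with rats 11 and 57 lowest, and the second one of 0.17.

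The *RT1-Da* to *RT1-Db1* ratio moved with 2 measures of the libraries. Over the 18 rats its log2 value correlated with the share of read-pairs on several locations (r = 0.83, p = 1e-05, adjusted p = 0.00015, rho = 0.77, p = 0.00033, adjusted p = 0.00247, by permutation, with adjustment over 15 relations) and with the share assigned to no feature (r = 0.81, p = 8e-05, adjusted p = 0.0006, rho = 0.75, p = 0.00063, adjusted p = 0.00315). Without rats 57 and 11, the 2 rats farthest from the median of either share, r was 0.67 and 0.57. *RT1-Db1* itself was lower where the share assigned to no feature was higher (r = -0.80, permutation p = 0.00013, adjusted p = 0.00065, rho = -0.79, p = 0.0002, adjusted p = 0.00247, and r = -0.72 without those 2 rats). *Cd74* had r = -0.66 with that share (permutation p = 0.00246, adjusted p = 0.00922, rho = -0.65, p = 0.0042, adjusted p = 0.0157, and r = -0.57 without the 2 rats). *RT1-Da* had r = -0.34 (permutation p = 0.164, adjusted p = 0.192, rho = -0.32, p = 0.193, adjusted p = 0.222, and r = -0.40 without them). *B2m* ran the other way, with r = 0.585 (permutation p = 0.00978, adjusted p = 0.0244, rho = 0.57, p = 0.0154, adjusted p = 0.0385, and r = 0.35 without them), and it had r = 0.63 with the share on several locations (permutation p = 0.00425, adjusted p = 0.0127, rho = 0.61, p = 0.00879, adjusted p = 0.0264, and r = 0.36 without them). *RT1-Db1* was also higher in rats with more read-pairs on genes (r = 0.57, permutation p = 0.0149, adjusted p = 0.032, rho = 0.55, p = 0.0188, adjusted p = 0.0403, and r = 0.50 without rats 44 and 18, the 2 farthest from the median). For *Cd74* that relation had r = 0.51 (permutation p = 0.0313, adjusted p = 0.0588, rho = 0.53, p = 0.025, adjusted p = 0.047, and r = 0.46 without those 2). With the share as a covariate *RT1-Db1* had a log2 fold change of 0.15 against naïve rats and 0.28 against bPYX+GFP rats in the bPYX+NT3 group, and *Cd74* had 0.13 and 0.30. The part of these library measures in the levels was not tested further, and the labels give no sequencing batch.

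The other genes of class II presentation were counted from a list of 18, of which 15 were in the table and 10 were tested. In bPYX+NT3 against naïve rats 1 of the 10 was higher at an unadjusted p under 0.05, where 3.09% of all genes were, and 0 were lower, and in the other comparisons 0 passed. With so few genes 1 call is near that background. The gene was *Rfxank*, a subunit of the RFX complex that binds the X box, with 2.02 ± 0.345 CPM in naïve rats, 2.52 ± 1.02 with GFP and 3.24 ± 0.623 with NT3 (SD, n = 6 each). Its log2 fold change was 0.67 (SE 0.173, edgeR unadjusted p = 0.00179, adjusted p = 0.607) in bPYX+NT3 against naïve rats, and 0.32 (SE 0.240) in bPYX+GFP against naïve rats. The lysosomal protease *Ctss*, which trims the invariant chain, had 53.3 ± 15.0, 51.8 ± 7.36 and 52.1 ± 15.0 CPM in the same groups (SD, n = 6 each). The transactivator *Ciita* had at most 1 read in a rat and was at 0 in 15 of 18, and *RT1-DMb*, a chain of the peptide editor, also had at most 1 read. The neuronal gene *Snap25*, chosen after its values were seen, had at most 7 reads in these ganglia, so that a row near 0 in this table does not show that a gene was silent. *RT1-DMa* was not analysed here.

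Of 17 further genes of the class I pathway 15 were in the table, 13 were tested and 0 passed an unadjusted p under 0.05 in any comparison. *Tapbp* (tapasin, which ties class I to the transporter) had 17.7 ± 2.79, 18.1 ± 3.76 and 19.5 ± 4.35 CPM in naïve, bPYX+GFP and bPYX+NT3 rats (SD, n = 6 each). *Psmb10*, the remaining inducible catalytic subunit, had 4.39 ± 1.38, 5.14 ± 1.09 and 5.84 ± 1.32 CPM. The partner chain of the transporter, *Tap2*, had at most 1 read in a rat. *Nlrc5* was not analysed here.

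Interferon gamma is the classical inducer of both pathways. Of the 13 genes of its list, all in the table, 11 identifiers were tested, and 1 was lower in bPYX+GFP than in naïve rats, where 2.52% of all genes were, while 0 passed in the other comparisons. Here too 1 call is near the background. The gene was *Gbp2*, an interferon-induced GTPase, with 83.8 ± 33.9 CPM in naïve rats, 58.4 ± 12.3 with GFP and 71.2 ± 48.1 with NT3 (SD, n = 6 each). Its log2 fold change was -0.52 (SE 0.225, edgeR unadjusted p = 0.0358, adjusted p = 0.9998) in bPYX+GFP against naïve rats. *Ifng* itself, chosen after its values were seen, was at 0 in 15 of 18 rats and reached at most 5 reads.

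The genes whose level followed the mean standardised log2 CPM of the class II genes most closely over the 18 rats were named by rank alone. The 10 highest were *RT1-A2* (r = 0.96), a class I heavy chain, an identifier without a symbol (0.95), *Cd68* (0.93), *Ifi30* (0.93), *C3* (0.92), *Psme1* (0.90), *Lmnb1* (0.90), *Nckap1l* (0.90), *Itgam* (0.90) and *C2* (0.89). Over all genes the 5th and 95th percentiles of this r were -0.66 and 0.66. *Cd68* is a lysosomal marker of macrophages, *Itgam* the integrin CD11b, *Ifi30* the thiol reductase of the class II compartment, and *C2* and *C3* are complement components. Among the closest followers of the mean of the class I pathway genes were *Csf2rb* (0.91), the same identifier without a symbol (0.91), *RT1-A2* (0.91), *Slfn2* (0.90), *Tyrobp* (0.90), *Fcgr2a* (0.90), *C3* (0.89), *Ifi47* (0.89) and *Tlr2* (0.89). In contrast *Rfx5*, another subunit of the RFX complex, had r = 0.02 with the class II mean, and was chosen after its values were seen.

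The summed macrophage markers moved with class II across the rats, though single markers differed. The T cell sum did so too, but its largest part was *Cd4*, and the *Cd3* genes had lower correlations than that sum. The sums of the other immune lists had lower correlations. Of 13 macrophage markers 12 were in the table and tested, and their summed level was 123 to 232 CPM in naïve rats, 94.3 to 188 with GFP and 112 to 257 with NT3. Its log2 value had r = 0.84 with the class II mean over the 18 rats (rho = 0.83), 0.77 without rat 17 and 0.84 after the group means were removed. Single markers ran from r = 0.30 (*Mrc1*) to 0.93 (*Cd68*), with *Cd163* at 0.41, *Aif1* at 0.49 and the others at 0.74 (*Cd14*) or higher. *Mrc1* was the most abundant of them, with group means of 43.4 to 47.5 CPM. Rat 17 had the highest sum of all rats, at 257 CPM, and rat 11, second for class II, was in place 8 at 164 CPM. Of these 12 markers 1 was lower in bPYX+GFP than in naïve rats, against 2.52% of all genes, *Cx3cr1* (the fractalkine receptor), with a log2 fold change of -0.47 (SE 0.203, edgeR unadjusted p = 0.0354, adjusted p = 0.9998), and 0 passed in the other comparisons. The 8 T cell markers, all in the table, summed to 9.04 to 33.5, 12.6 to 37.1 and 12.1 to 40.7 CPM in naïve, bPYX+GFP and bPYX+NT3 rats (r = 0.77 with class II), again highest in rat 17. *Cd4* made up the largest part of this sum, with group means of 10.5 to 12.6 CPM, and had r = 0.83. The r was lower for *Cd3d* (0.41), *Cd3g* (0.51), *Cd3e* (0.56), *Cd8a* (0.57), *Cd2* (0.57) and *Lck* (0.67). Of 8 dendritic cell markers 6 were in the table, with sums of 27.6 to 31.7, 26.1 to 37.5 and 28.3 to 43.2 CPM (r = 0.66, and 0.39 without rat 17), and *Batf3* had at most 2 reads. *Cd83* made up the largest part of this sum, at 14.9 to 23.7 CPM, and had r = 0.26, with 0.48 for *Clec9a* and 0.46 for *Zbtb46*. Of 6 B cell markers 4 were in the table, with sums of 1.03 to 9.68, 3.00 to 10.2 and 1.05 to 5.73 CPM (r = 0.45). The sums of 2 neutrophil and 4 mast cell markers had r = 0.36 and 0.15. The mast cell sum was mostly *Kit*, at 68.4 to 78.9 CPM (r = 0.37). The weaker *Cpa3*, *Cma1* and *Ms4a2* had r = -0.11, -0.08 and -0.27. None of the T, dendritic and B cell markers passed an unadjusted p under 0.05. In whole ganglia, more cells of a type and more RNA per cell cannot be told apart, and the part of immune cell numbers in the levels of the 9 genes was not tested.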

How the data were processed

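Libraries were made by the authors with oligo-dT selection and the TruSeq Stranded kit, and per the labels bcl2fastq 1.8.4, TopHat2, Picard and HTSeq were used with the Rnor_6.0 (rn6) genome. The strand setting of the counting and the versions of the other tools are not given in the sources used here. The authors deposited whole-number read counts per RefSeq identifier, without normalization and after removal of duplicates. Symbols were matched through a RefSeq table of GRCr8 for 14193 of 15075 identifiers, and promoter sequences come from RefSeq GRCr8, so that no coordinate was carried to Rnor_6.0. The counts recorded per rat were identical to the columns of the series table in 18 of 18 rats. The groups followed the table's heading.

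Groups were compared in R 4.3.3 with edgeR 4.0.16 (TMM, glmQLFit, glmQLFTest) on the 12 rats of each pair, keeping genes with over 10 reads in 6 or more rats, and Benjamini-Hochberg values were taken across every gene tested. A gene was called at an unadjusted p under 0.05, the rule of the study, and separately at an adjusted p under 0.05. CPM and log2 CPM (prior count 2) were computed with TMM over the 18 rats. The log2 CPM of each member was also put to a two-sided exact permutation test, and its inversion gave the 95% intervals. Correlations used 100000 permutations and, between members, are given without adjustment as a description. Counting SDs assume Poisson counts, and intervals of that kind cover counting error only. Depth was 10057787 to 16002410 read-pairs on genes per rat, so that *Psmb9*, at 11 to 56 reads, is the least precise. Read-pairs with no gene stayed out of library sizes. Rats are separate animals. The named genes are all members, list genes with an unadjusted p under 0.05 in a comparison, *Ciita*, *RT1-DMa*, *RT1-DMb*, *Ctss*, *Tap2*, *Tapbp*, *Psmb10* and *Nlrc5* whatever their values, and the 10 genes most correlated with the class II and the class I mean, apart from results that are not reported here. The members and lists were chosen with earlier results of these data known. Single markers of the macrophage, T cell, dendritic cell and mast cell sums, and the markers of the tissue check, were named after their values were seen. The fits were tested on simulated data. Lists of neuronal, glial, endothelial, fibroblast, adipocyte, mast cell, neutrophil and red blood cell markers were counted as well. Alternatives were the likelihood ratio test, DESeq2 1.42.0, other normalizations, filters and groupings, robust estimation, 1 fit over 3 groups, the no-feature share as a covariate, a prior count of 0.5 and leaving out each rat. A replicate block and the fit without rats 11 and 57 were added after seeing the data. Python 3.11.15 was used with numpy 2.4.6, scipy 1.17.1, pandas 2.3.3 and matplotlib 3.10.9.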

Additional observations from a re-analysis of the deposited data

Results flagged for a closer look

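Of the 27 combinations of gene and group of 6 rats, 3 held a rat that lay apart from the other 5 by Dixon's test at the 95% level. The test took the size of the gap against the group's range on linear CPM. A high value stands out more on that scale than on log2 CPM, for which no result is given. Chance gives about 1 in 20 for independent, normally spread values, but most of these genes moved together from rat to rat. Rat 17 of the bPYX+NT3 group had 160 CPM of *RT1-Da*, a gap of 0.724 of the group's range. The same rat had 18.7 CPM of *RT1-Bb*, a gap of 0.644. Rat 57 of the bPYX+GFP group had 958 CPM of *B2m*, the lowest value of its group, with a gap of 0.634. Rat 57 also had the lowest share of read-pairs on several locations of the 18 rats.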

How the results depend on the processing

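The call of no member at an unadjusted p under 0.05 held in 645 of 648 alternative values, and the other 3 were *Psmb8* between the injured groups with 1 rat left out. No value passed an adjusted p under 0.05. The exact tests gave 0 of 27 calls with a prior count of 0.5 as well, and the count of correlated pairs was 28 to 29 with a rat left out, 28 with a prior count of 0.5 and 32 without rats 11 and 57. The direction was less stable, with 62 values reversed, 34 of them with a rat left out.

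With the groups of the titles recorded with each rat's counts, the log2 fold changes in bPYX+NT3 against naïve rats turned to -0.73 (*Cd74*), -0.63 (*RT1-Da*), -0.84 (*RT1-Db1*), -0.52 (*RT1-Ba*), -0.43 (*RT1-Bb*), -0.53 (*Tap1*), -0.53 (*Psmb8*) and -0.19 (*Psmb9*). Between the injured groups they turned to -0.24, -0.22, -0.22, -0.15, -0.18, -0.10, -0.26 and -0.25 in the same order, and *B2m* to 0.047. In bPYX+GFP against naïve rats *Psmb9* turned to 0.056 and *B2m* to -0.050. *B2m*, at 0 within its error there, also turned to -0.0072 with library size alone, -0.00103 with no filter on low counts, -0.00014 with filterByExpr and -0.00060 with 1 fit over 3 groups. With the no-feature covariate *Psmb8*, *Psmb9* and *Tap1* turned to -0.073, -0.052 and -0.020 in bPYX+NT3 against naïve rats. The cause was not tested.

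Leaving out 1 rat gave log2 fold changes of -0.26 to 0.068 (*Cd74*), -0.30 to 0.13 (*RT1-Db1*), -0.15 to 0.088 (*RT1-Ba*), -0.030 to 0.052 (*B2m*), -0.20 to 0.069 (*Tap1*) and -0.36 to 0.039 (*Psmb9*) in bPYX+GFP against naïve rats. In bPYX+NT3 against naïve rats they were -0.25 to 0.44 (*RT1-Da*), -0.094 to 0.36 (*RT1-Ba*), -0.084 to 0.31 (*RT1-Bb*), -0.088 to 0.41 (*Tap1*) and -0.17 to 0.32 (*Psmb9*). Between the injured groups they were -0.052 to 0.67 (*RT1-Da*), -0.086 to 0.38 (*RT1-Ba*), -0.00996 to 0.39 (*RT1-Bb*) and -0.00026 to 0.50 (*Tap1*). The other members did not reverse with a rat left out, but moved by over 1.5 times, as *Psmb8* did from 0.037 to 0.44 and *Cd74* from 0.17 to 0.67 in bPYX+NT3 against naïve rats.

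The counts of genes at an unadjusted p under 0.05 over the whole table, 377, 703 and 201 in the 3 comparisons, were less stable than the members' calls. With a rat left out they ranged from 272 to 595, from 365 to 1387 and from 95 to 2291. They were 174 and 330 for the first 2 comparisons with the titles' groups, 846 for the first with the no-feature covariate, 315 for the third with no filter on low counts, and 595, 365 and 1462 without rats 11 and 57.

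Same-numbered rats of 2 groups are different animals and did not all deviate together, with correlations of their deviations between -0.402 and 0.534, and a rat correlated best with its own number in 9 of 36 cases. The labels do not say what the number stands for. With a replicate block the counts were 316, 2962 and 130, 0 of the 9 genes were called, and in bPYX+GFP against naïve rats *RT1-Ba* turned to 0.030 and *B2m* to -0.00040.

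Depth limits *Psmb9*, *Psmb8* and *Tap1* most, at 11 to 147 reads per rat, and with 6 rats a group the 95% intervals of the class II genes reached 0.40 to 1.56 above 0 on the log2 scale.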

Other observations

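The summed levels of the markers of the remaining cell types had r with the class II mean between -0.20 (Schwann cell) and 0.47 (endothelial) over the 18 rats, a range that holds the 0.45 of the B cell markers. At an unadjusted p under 0.05 with edgeR, where the whole table gave 3.25%, 6.01% and 1.73% of genes, 3 of 4 mast cell markers were lower in bPYX+NT3 than in naïve rats, namely *Cpa3* (log2 fold change -0.88), *Ms4a2* (-0.73) and *Cma1* (-0.71), and *Cpa3* was also lower in bPYX+GFP than in naïve rats (-0.35) and in bPYX+NT3 than in bPYX+GFP rats (-0.53). Of 2 adipocyte markers tested, *Adipoq* was lower in bPYX+NT3 than in naïve (-1.85) and bPYX+GFP rats (-2.11), and *Fabp4* than in bPYX+GFP rats (-2.05). The fibroblast *Col1a1* was lower in bPYX+GFP (-0.49) and bPYX+NT3 rats (-0.34) than in naïve rats, *Lum* in bPYX+GFP rats (-0.23) and *Dcn* in bPYX+NT3 rats (-0.28). The Schwann cell *Pmp22* was lower in both injured groups (-0.31 in each). The neuronal *Avil* was higher in bPYX+NT3 than in naïve rats (0.19), and the satellite glia *Kcnj10* higher in bPYX+NT3 than in bPYX+GFP rats (0.42). None of the endothelial, neutrophil and red blood cell markers passed in any comparison. No marker passed the adjustment over all genes.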
